A study of Mus musculus with 8 samples.

Results

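The genes described here are the 10 apolipoprotein genes Apoa1, Apoa2, Apoa4, Apoa5, Apob, Apoc1, Apoc2, Apoc3, Apoc4 and Apoe. They were taken by name, and all 10 were found among the 56953 gene identifiers of the count tables. Poly(A)-selected RNA of whole liver from male mice was sequenced as 4 HSC-PCK1-KO libraries, from mice lacking PCK1 in hepatic stellate cells (HSC), and 4 Control libraries from mice of wild-type (WT) genotype. Adult mice of both groups were kept for 8 weeks on CDHFD, a fat-rich diet deficient in choline, and the labels put all libraries in a single batch. The sources used here do not give the allele, the promoter that drove the knockout or the exact age. The comparison addresses what lack of PCK1 in stellate cells, the collagen-producing cells of the liver, does to liver transcripts.

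Apolipoproteins are the protein coat of the particles that carry fat in blood. Hepatocytes assemble very low density lipoprotein around Apob, add the exchangeable proteins Apoe and Apoc, and secrete Apoa1 and Apoa2 as the base of high density lipoprotein (HDL). A diet without choline limits the phosphatidylcholine needed for that export, so fat stays in the liver, and in fatty mouse liver Apoa4 is known as a gene that responds to lipid load. Apoa1, Apoc3, Apoa4 and Apoa5 lie side by side on chromosome 9, and Apoc2, Apoc4, Apoc1 and Apoe on chromosome 7. Apob on chromosome 12 and Apoa2 on chromosome 1 stand alone.

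The sequences upstream of Apoa4, Apoa1 and Apoa5 are shown because these genes lie in the same cluster. That of Apob is shown because it encodes the scaffold of the particle. RefSeq's promoter table of build GRCm38.p6 held windows for 8 of the 10 genes, leaving Apoc1 and Apoc3 without one. Capitals mark CAAAGNNCA, the core of the site bound by HNF4 and related nuclear receptors, and TATAAA, the TATA box, each searched on both strands. None of the marked matches overlapped. Each stretch is on the plus strand and stops before the first annotated start of the gene, at chr9:46228380-46228579 for Apoa1, chr9:46240594-46240695 for Apoa4, chr9:46268358-46268607 for Apoa5 and chr12:7977427-7977628 for Apob.
Apoa1: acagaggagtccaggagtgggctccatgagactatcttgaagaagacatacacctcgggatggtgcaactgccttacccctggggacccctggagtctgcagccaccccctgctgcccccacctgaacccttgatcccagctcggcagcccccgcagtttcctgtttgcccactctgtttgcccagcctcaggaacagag
Apoa4: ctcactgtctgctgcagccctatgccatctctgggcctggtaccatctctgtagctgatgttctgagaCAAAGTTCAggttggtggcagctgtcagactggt
Apoa5: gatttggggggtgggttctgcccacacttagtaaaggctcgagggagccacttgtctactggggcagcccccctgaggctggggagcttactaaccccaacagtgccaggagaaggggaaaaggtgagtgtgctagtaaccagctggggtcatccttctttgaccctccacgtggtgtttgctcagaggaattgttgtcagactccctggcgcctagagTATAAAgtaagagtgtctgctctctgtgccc
Apob: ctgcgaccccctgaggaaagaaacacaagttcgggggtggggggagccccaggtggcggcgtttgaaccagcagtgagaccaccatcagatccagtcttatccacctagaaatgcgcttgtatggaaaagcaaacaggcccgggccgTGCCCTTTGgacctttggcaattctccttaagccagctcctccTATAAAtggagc
Over the whole windows of 300 bases, CAAAGNNCA was found in Apoa4 and, on the opposite strand, in Apob, and in none of the other 6 genes with a window. It occurs in 6.36% of 32851 such windows of all genes. TATAAA, which occurs in 13.6% of them, was found in windows of Apoa2, Apoa5, Apob and Apoe, some of these genes having more than 1 window. These matches describe letters and not bound sites.

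No apolipoprotein gene passed the test between the genotypes. With edgeR's quasi-likelihood test and Benjamini-Hochberg adjustment, 0 of the 10 genes and 0% of the 15669 genes tested were called at 0.05, DESeq2 called 3 genes, none of them an apolipoprotein gene, and limma-voom called 0. Before adjustment, edgeR gave 370 genes a p under 0.05 (2.36%), DESeq2 422 and limma-voom 371, with 0 of the 10 in any of these. In no apolipoprotein gene were the 4 HSC-PCK1-KO libraries separate from the 4 Control libraries, against 1.53% of all genes. edgeR's adjusted p was 0.9998 for each of the 10. The log2 fold change, HSC-PCK1-KO minus Control, was above 0 in 7 genes and below 0 in 3, with a median of 0.032 against -0.0055 over all genes tested, and without HSC-PCK1-KO replicate 4 that median was 0.136. In bulk liver, fewer hepatocytes and less RNA per hepatocyte cannot be told apart.

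The intervals say how large a difference these data leave room for. For 7 of the 10 genes the 95% interval excluded a 1.5-fold difference in either direction, and for 9 a 2-fold one, against 66.8% and 86.7% of all genes tested. The exceptions at 1.5-fold were Apoa4, Apoc2 and Apoc4, and at 2-fold Apoa4. For Apoa2 and Apoc1 the 1.5-fold bound did not hold in some of the fits that left out 1 library. Without Control replicate 3 their intervals reached 0.636 and 0.647 on the log2 scale, beyond 1.5-fold.

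**Figure D1:**
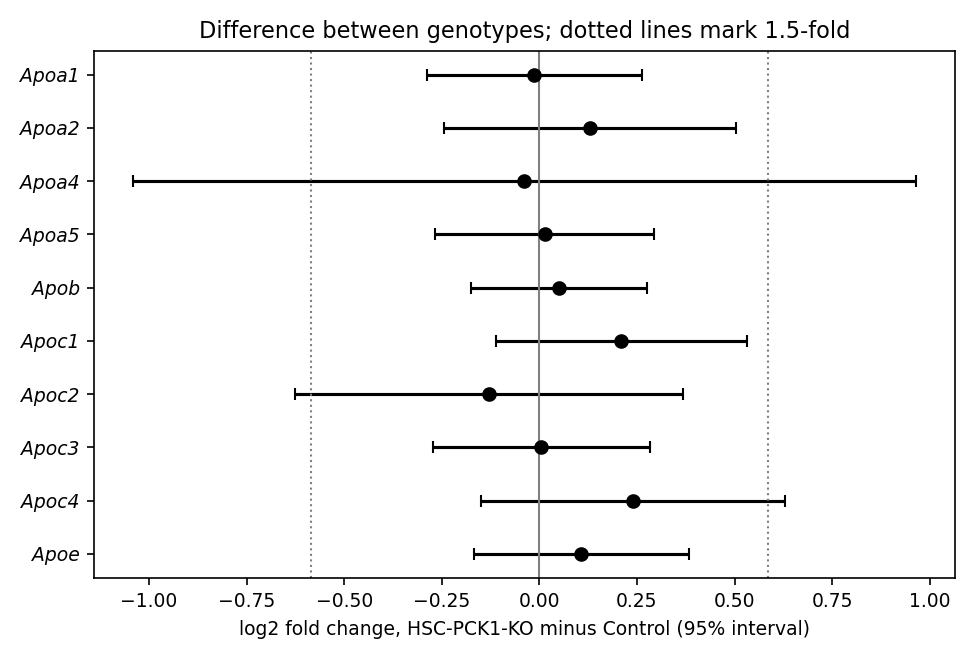
Log2 fold change of each apolipoprotein gene, HSC-PCK1-KO minus Control, as points with 95% intervals computed from the edgeR fit, with dotted lines at 1.5-fold. All 10 intervals cross 0, and that of Apoa4, from -1.04 to 0.96, is the widest.

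Apob, the single large scaffold protein that stays with its particle from assembly to uptake, was the steadiest member. It had 4284, 4696, 3722 and 4529 counts per 1000000 counts of the library (CPM) in HSC-PCK1-KO replicates 1 to 4, against 4282, 4191, 3975 and 4187 CPM in Control replicates 1 to 4. The Control libraries lay within 1.08-fold of each other, and the HSC-PCK1-KO libraries reached both above and below them. The means were 4308 ± 425 (HSC-PCK1-KO) and 4159 ± 130 CPM (Control; SD, n = 4 each), a log2 fold change of 0.051 (SE 0.10, 95% interval -0.17 to 0.28). Counts per gene do not separate the full-length protein's message from the edited message that encodes the truncated form.

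Apoa1, the main protein of HDL and the activator of cholesterol esterification in plasma, had 5361, 5588, 6387 and 6011 CPM in HSC-PCK1-KO libraries, against 6545, 6383, 5899 and 4726 CPM in Control libraries. Control replicate 4 was the lowest of the 8 and Control replicate 1 the highest, so the Control group enclosed the other. The log2 fold change was -0.013 (SE 0.12, 95% interval -0.29 to 0.26). Apoa2, the other abundant HDL protein, had 6917, 5027, 5173 and 4316 CPM in HSC-PCK1-KO libraries, against 5220, 4816, 5752 and 3799 CPM in Control libraries. HSC-PCK1-KO replicate 1 stood above every other library, and Control replicate 4 was again lowest. Its log2 fold change was 0.13 (SE 0.17, 95% interval -0.24 to 0.50).

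Apoa4, which rides on triglyceride-rich particles and HDL, spread far more than its neighbours. It had 2221, 6161, 7909 and 2616 CPM in HSC-PCK1-KO libraries, against 6238, 3117, 4332 and 5728 CPM in Control libraries. The HSC-PCK1-KO group held both the lowest and the highest libraries, 3.56-fold apart, with replicates 1 and 4 low and replicates 2 and 3 high. The Control libraries spanned 2.00-fold and lay inside that range. The means were 4727 ± 2764 (HSC-PCK1-KO) and 4854 ± 1411 CPM (Control; SD, n = 4 each), a log2 fold change of -0.038 (SE 0.43). Its interval, from -1.04 to 0.96, corresponds to 0.486-fold to 1.95-fold. The sign of this difference turned on single libraries. It was 0.19 when HSC-PCK1-KO replicate 1 was left out and 0.16 when replicate 4 was. Leaving out Control replicate 1 gave 0.11 and Control replicate 4 gave 0.052, while leaving out HSC-PCK1-KO replicate 3 gave -0.41.

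The coefficient of variation of Apoa4 over the 8 libraries was 42.4%, where the median of the 117 genes with a mean of at least 1000 CPM was 11.2%. Only Serpina1e at 117.6% and Scd1, the stearoyl-CoA desaturase, at 71.1% exceeded it among those genes. The other members ranged from 7.13% for Apob to 24.3% for Apoc2. Apoa1 lies in the same cluster as Apoa4, with Apoc3 between them. In the same libraries Apoa4 ran at 0.414, 1.10, 1.24 and 0.435 times the counts of Apoa1 in HSC-PCK1-KO replicates 1 to 4. In Control replicates 1 to 4 it ran at 0.953, 0.488, 0.734 and 1.21 times those counts. Both genotypes held libraries with less than 0.5 times as many Apoa4 counts as Apoa1 counts and libraries with more.

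**Figure D2:**
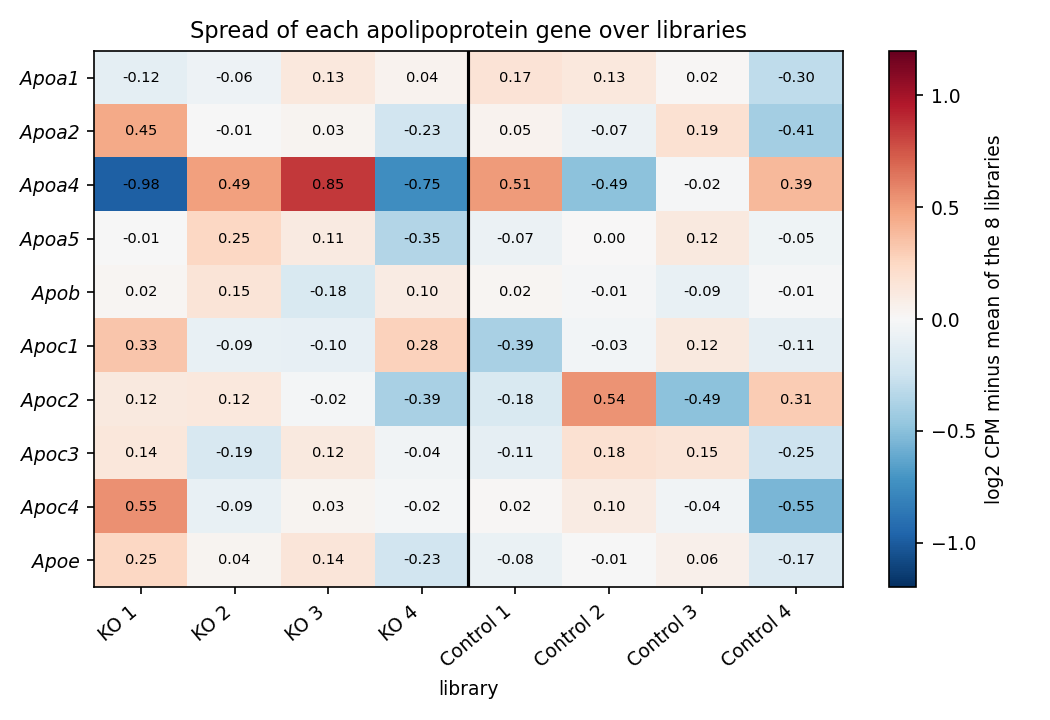
Log2 CPM of each apolipoprotein gene in each library minus that gene's mean over the 8 libraries, HSC-PCK1-KO (KO) left of the line and Control right of it. Apoa4 runs from -0.98 in HSC-PCK1-KO replicate 1 to 0.85 in HSC-PCK1-KO replicate 3, while Apob stays between -0.18 and 0.15.

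Apoa4 also lies over genes on the opposite strand. In GENCODE M21 (GRCm38), Gm10680 covers 34.8% of its exonic bases and Gm47528 covers 34.9%. Gm10680 had 67.8, 53.6, 92.4 and 73.3 CPM in HSC-PCK1-KO libraries, against 116.2, 103.7, 136.4 and 77.8 CPM in Control libraries. The groups overlapped only through HSC-PCK1-KO replicate 3 and Control replicate 4, and the log2 fold change was -0.60 (SE 0.20), with edgeR's adjusted p at 0.9998 and its unadjusted p at 0.0147. Gm47528 had 24.6, 15.6, 33.6 and 27.5 CPM in HSC-PCK1-KO libraries, against 47.9, 41.1, 45.0 and 26.9 CPM in Control libraries, which is -0.67 on the log2 scale (SE 0.25) and has the same adjusted p of 0.9998 from edgeR. Whether the counts of these opposite-strand genes follow those of Apoa4 was not tested. The libraries kept strand, but the sources used here do not say whether the counting used it. Without strand, reads in the shared stretches cannot be assigned to Apoa4 or to these partners. These genes were chosen for their position after their values were seen.

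Apoa5, which helps lipoprotein lipase clear triglyceride, had 1117, 1332, 1212 and 877 CPM in HSC-PCK1-KO libraries, against 1069, 1125, 1215 and 1085 CPM in Control libraries. HSC-PCK1-KO libraries held both extremes, and the Control libraries lay within 1.14-fold of each other. Its log2 fold change was 0.014 (SE 0.13, 95% interval -0.27 to 0.29). The antisense gene Gm47544, over 20.8% of its exonic bases, had 3.26 to 14.4 CPM in HSC-PCK1-KO libraries and 3.43 to 14.4 CPM in Control libraries.

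Apoc3, an inhibitor of lipoprotein lipase and of remnant uptake, had 1944, 1548, 1915 and 1718 CPM in HSC-PCK1-KO libraries, against 1641, 2004, 1968 and 1487 CPM in Control libraries. Both groups held low and high libraries. The log2 fold change was 0.0051 (SE 0.13, 95% interval -0.27 to 0.28), the closest to 0 of the 10. Apoc1, which hinders lipolysis and receptor binding of particles, had 4120, 3073, 3062 and 3971 CPM in HSC-PCK1-KO libraries, against 2497, 3207, 3561 and 3033 CPM in Control libraries. HSC-PCK1-KO replicates 1 and 4 exceeded every Control library, and replicates 2 and 3 lay among them. Its log2 fold change was 0.21 (SE 0.15, 95% interval -0.11 to 0.53), and its unadjusted p of 0.178 in edgeR was the smallest of the 10.

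Apoc4, a small liver apolipoprotein of triglyceride-rich particles, had 180.1, 115.4, 125.7 and 121.3 CPM in HSC-PCK1-KO libraries, against 124.5, 131.3, 119.7 and 84.0 CPM in Control libraries. Leaving aside HSC-PCK1-KO replicate 1 at the top and Control replicate 4 at the bottom, the other 6 libraries lay between 115.4 and 131.3 CPM. The log2 fold change of 0.24 (SE 0.17, 95% interval -0.15 to 0.63) was the farthest from 0 of the 10, but it was 0.072 without HSC-PCK1-KO replicate 1, when Apoa4, Apoc2 and Apoc1 lay farther from 0.

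Apoc2, the cofactor that lipoprotein lipase needs, was counted at 4.24, 4.26, 3.84 and 2.97 CPM in HSC-PCK1-KO libraries, against 3.45, 5.70, 2.77 and 4.84 CPM in Control libraries. The Control group enclosed the HSC-PCK1-KO group, and the log2 fold change was -0.13 (SE 0.22, 95% interval -0.63 to 0.37). These values rest on 131 to 253 counts per library and their level is uncertain. In GENCODE M21, 79.5% of the exonic bases of Apoc2 are also exons of Gm44805, a gene on the same strand. Gm44805 had 0 counts in all 8 libraries. The sources used here do not say how reads matching both genes were handled. Gm44805 shares only 4.69% of the exonic bases of Apoc4.

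Apoe, the ligand by which liver receptors such as LRP1 take up remnants, held more counts than any other member. It had 18911, 16353, 17589 and 13636 CPM in HSC-PCK1-KO libraries, against 15069, 15867, 16582 and 14192 CPM in Control libraries. HSC-PCK1-KO libraries held both the highest and the lowest value. The means were 16622 ± 2248 (HSC-PCK1-KO) and 15427 ± 1030 CPM (Control; SD, n = 4 each), a log2 fold change of 0.11 (SE 0.12, 95% interval -0.17 to 0.38).

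**Figure D3:**
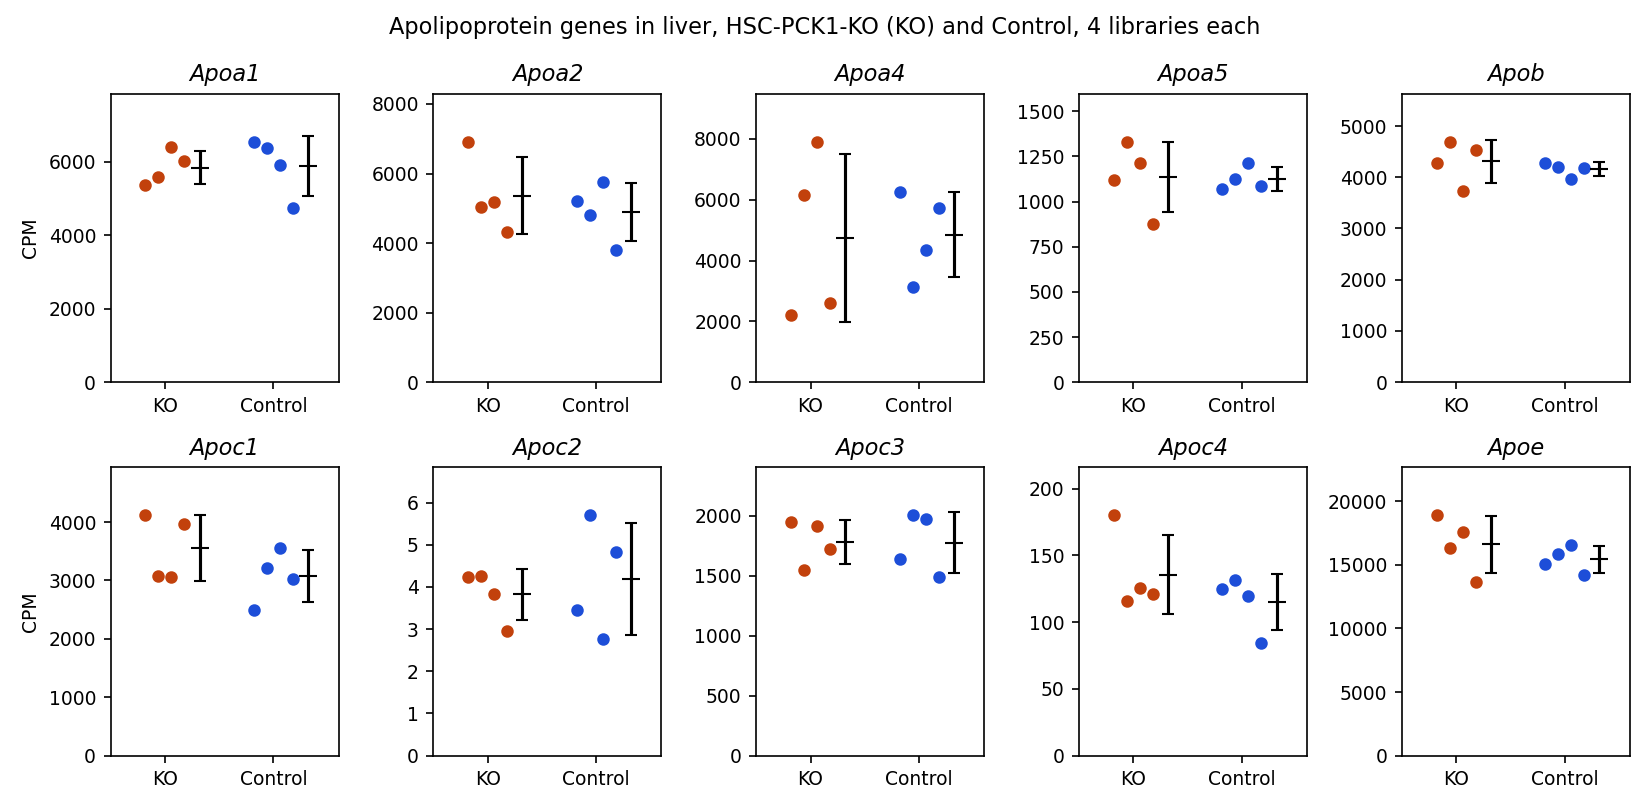
CPM of each apolipoprotein gene in the 4 HSC-PCK1-KO (KO) and 4 Control libraries, 1 point per library in replicate order, with the mean and SD beside them and each axis starting at 0. The groups overlap in all 10 genes, from Apoc2 at 2.77 to 5.70 CPM to Apoe at 13636 to 18911 CPM.

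Apoe is also made by macrophages, so their markers stand here beside it. The 8 Kupffer cell and macrophage markers, Clec4f and Cd68 among them, summed to 292 to 541 CPM in HSC-PCK1-KO libraries and 336 to 567 CPM in Control libraries, 3 above and 5 below 0 in log2 fold change. The 6 markers of lipid-associated macrophages, such as Trem2 and Gpnmb, summed to 52.9 to 131.2 CPM in HSC-PCK1-KO libraries and 35.0 to 210.1 CPM in Control libraries, with 5 of 6 below 0. Control replicate 4 had the highest sum of all libraries in both lists, 567 and 210.1 CPM, with 14192 CPM of Apoe, the lowest of the Control group. HSC-PCK1-KO replicate 1 had the highest Apoe, 18911 CPM. Its Kupffer cell and macrophage sum, 541 CPM, was the highest of its group, and its lipid-associated macrophage sum, 52.9 CPM, the lowest. The part of these cells in Apoe was not tested.

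The 8 tested hepatocyte markers summed to 89554 to 111652 CPM in HSC-PCK1-KO libraries and 92885 to 110558 CPM in Control libraries, 4 above and 4 below 0, and Alb, which encodes albumin, held the top TPM rank of all genes. The 11 stellate cell and fibroblast markers summed to 381 to 458 CPM in HSC-PCK1-KO libraries and 448 to 527 CPM in Control libraries, with 9 of 11 below 0, and none of these was called. Intestine also makes Apob and Apoa4, and of its markers Sis had 0 counts in all 8 libraries, which allows up to 3 counts or 0.0671 CPM. Lct had at most 1 count and Cdh17 at most 4, Vil1 at most 0.322 CPM, and Fabp2 made up nearly all of the list's sum of 152 to 233 CPM in HSC-PCK1-KO libraries and 109 to 187 CPM in Control libraries. Endothelial markers summed to 146 to 196 CPM in HSC-PCK1-KO libraries and 164 to 187 CPM in Control libraries, and cholangiocyte markers to 4.93 to 8.69 CPM in HSC-PCK1-KO and 6.32 to 8.82 CPM in Control libraries. Pck1, the targeted gene, had 339 to 948 CPM in HSC-PCK1-KO libraries and 550 to 2011 CPM in Control libraries, overlapping, and its log2 fold change was -0.78 (SE 0.44) at 0.9998 for the adjusted p from edgeR. Hepatocytes express it too, so whole liver does not check the deletion in stellate cells.

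Levels can be compared between genes only per length, for which counts were divided by exonic length and scaled to sum to 1000000 in each library (TPM). The length was the union of all annotated exons of a gene, 537 bases for Apoa2 and 2138 for Apoe. Such a union can exceed the transcript that liver makes, which would set that gene's TPM too low. In that order Apoa2 led with 24175 ± 3395 TPM in HSC-PCK1-KO and 22492 ± 3309 TPM in Control livers (SD, n = 4 each), followed by Apoe with 18913 ± 1764 (HSC-PCK1-KO) and 17835 ± 728 TPM (Control). Apoa1 had 11571 ± 1406 (HSC-PCK1-KO) and 11747 ± 1271 TPM (Control), and Apoc1 11652 ± 1699 (HSC-PCK1-KO) and 10217 ± 1396 TPM (Control). By this measure these were 4 of the 13 most abundant genes of the liver, at ranks 4, 6, 11 and 13.

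Apoa4 at 6429 ± 3844 TPM in HSC-PCK1-KO and 6689 ± 2195 TPM in Control livers and Apoc3 at 4283 ± 355 (HSC-PCK1-KO) and 4312 ± 411 TPM (Control) came next. Apoa5 stood at 1098 ± 192 (HSC-PCK1-KO) and 1102 ± 65.4 TPM (Control), Apob at 757 ± 95.3 (HSC-PCK1-KO) and 740 ± 50.6 TPM (Control), Apoc4 at 129.5 ± 19.9 (HSC-PCK1-KO) and 111.4 ± 16.1 TPM (Control) and Apoc2, with the uncertainty given above, at 11.5 ± 1.55 (HSC-PCK1-KO) and 12.7 ± 3.93 TPM (Control). Apob, the longest transcript, thus ranked 5 by CPM and 8 by TPM among the 10. Apoa2 exceeded Apoe by TPM in 8 of 8 libraries, though their ranges over libraries overlapped. The order of these 2 genes depends on the lengths used, since by CPM Apoe ranked 1 and Apoa2 3 among the 10. Apoa1 exceeded Apoc1 in only 4 of 8, and Apoa4 exceeded Apoc3 in 5 of 8, so neither pair has a fixed order, while Apoc1 exceeded Apoa4 in 6 of 8. From Apoc3 down to Apoc2 no ranges overlapped.

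Together the 10 genes held 4.24%, 4.43%, 4.77% and 3.93% of all counts in HSC-PCK1-KO replicates 1 to 4, against 4.25%, 3.88%, 4.34% and 4.06% in Control replicates 1 to 4. The means were 4.34 ± 0.354% and 4.13 ± 0.207% (SD, n = 4 each), with each group overlapping the other. Apoe alone was 36.1% to 42.0% of these counts in HSC-PCK1-KO libraries and 35.3% to 38.8% in Control libraries. With TMM scaling, HSC-PCK1-KO replicate 1 had the highest level of 4 of the 10 genes, Apoa2, Apoc1, Apoc4 and Apoe, and Control replicate 4 the lowest of 4, Apoa1, Apoa2, Apoc3 and Apoc4. These counts depend on the scaling, since the TMM factor was lowest in HSC-PCK1-KO replicate 1 (0.942) and highest in Control replicate 4 (1.06). By library totals alone they were 2, Apoa2 and Apoc4, and 3, Apoa1, Apoa2 and Apoc4.

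Over the 8 libraries no pair of the 10 genes correlated past an adjusted p of 0.05. The 6 pairs of adjacent genes, with gaps between them from 0.141 kb for Apoc2 and Apoc4 to 25.2 kb for Apoa4 and Apoa5 (GRCm38), were compared in log2 CPM, a comparison chosen after the values were seen. Pearson's r ranged from -0.432 for Apoc3 and Apoa4 to 0.517 for Apoa4 and Apoa5, and Spearman's rho from -0.429 to 0.381. The smallest exact permutation p, two-sided, was 0.191 for r and 0.299 for rho, and the smallest adjusted over the 6 were 0.411 and 0.601. Without the 2 libraries farthest from the median of the first gene, r ranged from -0.256 to 0.422. Apoa4 and Apoa5 had r = 0.192 in that case (n = 6), and Apoa1 and Apoc3, with r = 0.493 over all 8, had 0.382. Such values depend on which gene of a pair is taken first. For Apoc3 and Apoa4, r was -0.207 with Apoc3 first and -0.471 with Apoa4 first.

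Some genes that are not adjacent had higher values. Among all 45 pairs, r was above 0 in 24 and below 0 in 21, and 4 pairs had an exact two-sided permutation p under 0.05 for r before adjustment. Apoa2 and Apoe had r = 0.860 (p = 0.00690) and rho = 0.786 (p = 0.0279), both from exact permutation, and r = 0.714 without the 2 farthest libraries. Apoa4 and Apoc1 ran opposite, with r = -0.809 (p = 0.0144) and rho = -0.857 (p = 0.0107), both from exact permutation, and r = -0.467 without the 2 farthest. Apoa2 and Apoc4 had r = 0.865 and rho = 0.500 (exact permutation p = 0.0213 and 0.216). Without the 2 farthest libraries their r was -0.155. Leaving out the libraries farthest in the first gene narrows its range, which can lower r in any pair. Apoc3 and Apoc4 had r = 0.688 (exact permutation p = 0.0260) and rho = 0.690 (p = 0.0694), and r = 0.323 without the 2 farthest. Adjusted over the 45 pairs, p was 0.292 for r in each of these 4, and the smallest for rho was 0.482. The TMM factor of a library is shared by all 10 genes, and by library totals alone the 4 values of r were 0.759, -0.673, 0.806 and 0.491 in the same order.

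Likeness across libraries was also taken over 7598 genes outside the family with a mean of at least 10 CPM, as a description of the 8 libraries. Among so many genes and so few libraries high values arise readily, and 1 to 65 genes per member reached 0.9. The 2 genes closest to Apoa4 were Usp20 (r = 0.987) and Gatad2a (r = 0.976), and those closest to Apoe were Aes (r = 0.977) and Cgrrf1 (r = 0.972). Apoa2 was closest to Gsta3 (r = 0.984), a glutathione transferase, and Mrps35 (r = 0.977), Apoa1 to Gpsm2 (r = 0.981) and Trmt6 (r = 0.963), and Apoa5 to Crem (r = 0.975) and Agap3 (r = 0.962). Apob was closest to Foxj3 (r = 0.960) and Dpp8 (r = 0.945), Apoc1 to Azgp1 (r = 0.983) and Cnot8 (r = 0.979), and Apoc3 to Irf3 (r = 0.974) and Prmt9 (r = 0.965). Apoc4 was closest to Ndufa3 and Rps28 (r = 0.967 each), and Apoc2 to Vps37b (r = 0.919) and Acin1 (r = 0.886).

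Of the genes that act on or beside apolipoproteins, 0 of 85 were called, in 7 lists, and 1 of them, Apod, was not tested. Of 16 genes of lipoprotein assembly and export, 10 were above 0 and 6 below, with a median log2 fold change of 0.028 that reached -0.000942 with a library left out. Smlr1 had a mean of 25.7 ± 0.812 CPM in knockout (HSC-PCK1-KO) livers against 23.1 ± 1.19 CPM in Control livers (SD, n = 4 each). Its groups did not overlap, as in 1.53% of all genes tested, and edgeR's adjusted p was 0.9998. Cideb had 256.7 ± 25.7 (HSC-PCK1-KO) and 231.7 ± 7.56 CPM (Control). P4hb, the subunit that partners the triglyceride transfer protein Mttp, had a log2 fold change of 0.074 (SE 0.11), and Mttp itself -0.031 (SE 0.12). All 4 genes of Apob mRNA editing were below 0, with a median of -0.085. Among them A1cf, the cofactor that brings the deaminase to its site, had 64.0 ± 9.56 (HSC-PCK1-KO) and 74.6 ± 5.27 CPM (Control), and the deaminase Apobec1 19.0 ± 1.97 (HSC-PCK1-KO) and 20.9 ± 3.44 CPM (Control).

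Of 13 receptor and uptake genes, 4 were above 0 and 9 below, with a median of -0.032. Lrp1, a large receptor that takes up remnants, had a log2 fold change of -0.15 (SE 0.10). Srebf2, a transcription factor of sterol synthesis genes, had a mean of 60.5 ± 7.92 CPM in knockout (HSC-PCK1-KO) livers against 74.2 ± 4.94 CPM in Control livers (SD, n = 4 each). Neither passed (edgeR's adjusted p = 0.9998 for each). The 24 transcription factors of apolipoprotein genes had a median of 0.015, from -0.0361 to 0.0442 with a library left out, and 13 were above and 11 below 0. Hnf4a, whose motif is marked above, had a log2 fold change of -0.081 (SE 0.11), Creb3l3, a lipid-sensing factor of Apoa4 in mouse liver, 0.038 (SE 0.098), Nr1h3, the liver X receptor, 0.18 (SE 0.11), and Rxra -0.094 (SE 0.12).

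Plasma lipolysis genes were above 0 in 2 and below in 7 of 9, with a median of -0.070, Gpihbp1 at -0.12 (SE 0.088) and Lipg at -0.21 (SE 0.19). HDL biogenesis and sterol export genes were above 0 in 4 and below in 4 of 8, with a median of -0.035, which lay between -0.0717 and 0.0506 with a library left out. There Abca1, which loads cholesterol onto Apoa1, was at -0.15 (SE 0.087), Soat2 at 0.10 (SE 0.085) and Lcat, the enzyme that Apoa1 activates, at 0.042 (SE 0.088). Of 11 other plasma apolipoproteins and HDL proteins, 10 were tested, 8 above and 2 below 0, with a median of 0.080, and Apod, with at most 1 count per library, was not tested. Apoh had a mean of 2531 ± 170 CPM in knockout (HSC-PCK1-KO) livers against 2571 ± 298 CPM in Control livers, and Pon3 59.0 ± 4.59 (HSC-PCK1-KO) and 55.3 ± 2.37 CPM (Control; SD, n = 4 each). Saa1, an acute phase protein that displaces Apoa1 from HDL, had 1165, 79.5, 109.7 and 168.3 CPM in HSC-PCK1-KO libraries, against 114.9, 47.6, 101.8 and 231.2 CPM in Control libraries. HSC-PCK1-KO replicate 1 stood far above the other 7 libraries, and the log2 fold change was 1.62 (SE 0.98).

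**Figure D4:**
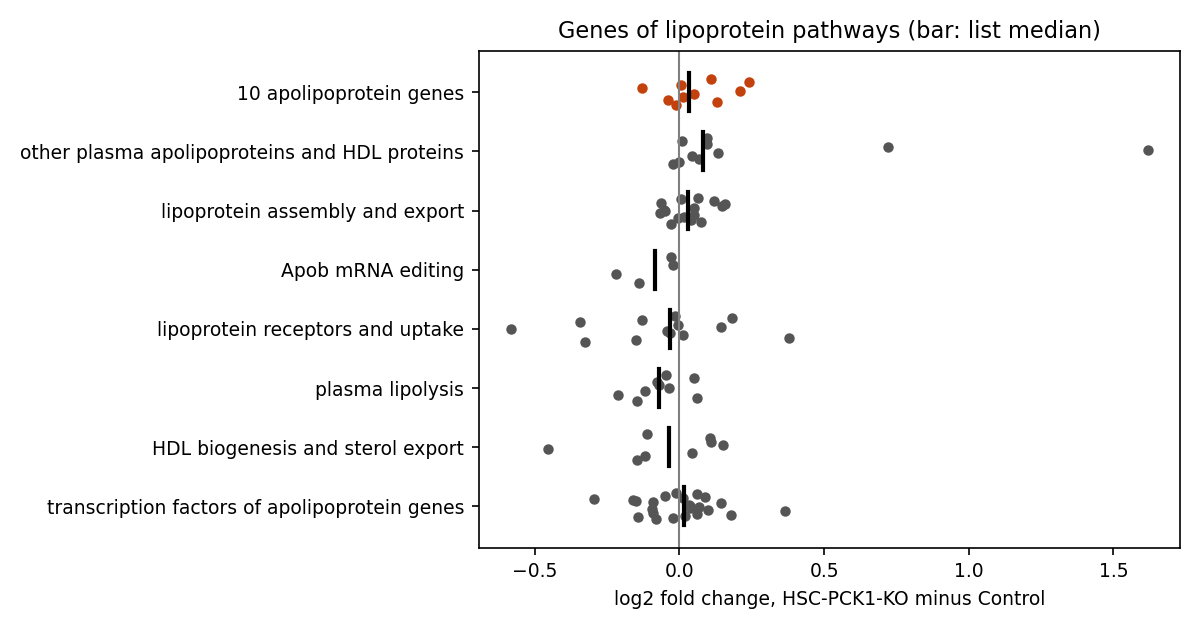
Log2 fold change, HSC-PCK1-KO minus Control, of each tested gene in the 10 apolipoprotein genes and 7 lists of lipoprotein genes, with a bar at each list's median. Medians lie between -0.085 and 0.080, and Saa1 at 1.62 stands farthest from 0.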

How the data were processed

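The authors deposited raw counts per gene, whole numbers with no normalization, for 8 libraries with totals from 44695439 to 49477255. Per the labels' protocols, mRNA was captured with oligo(dT) and made into strand-specific paired-end libraries for DNBSEQ. Per the submitters' processing notes, the build was GRCm39 and R 4.3.2 was used. The sources used here do not give the aligner, counter, annotation or strand setting. Identifiers were named from GENCODE M21 (GRCm38), which matched 52029 of 56953. Exonic lengths for TPM, the union of a gene's annotated exons, came from it too and may differ from those of the authors' annotation.

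Counts were analysed in R 4.3.3 with edgeR 4.0.16 (quasi-likelihood F-test, robust, genotype only, TMM factors, filterByExpr, which kept 15669 genes), p adjusted by Benjamini-Hochberg across the whole table, called at 0.05. SE was computed as the absolute log2 fold change divided by the square root of F from that test. The 95% intervals are the log2 fold change plus or minus SE times a quantile of the t distribution, an approximation. CPM values use library totals and TMM factors, and log2 CPM a prior count of 2. The design text calls the 4 libraries of a group biological replicates. The sample titles give each library its own number in parentheses but do not say what it stands for. Whether each is a different mouse is not stated, and p-values reflect variation among these 8 libraries only. Replicates differed by far more than counting noise (chi-square per degree of freedom 48.7 to 185).

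The members and lists were chosen with earlier results of these data known. Of 143 list symbols, 142 were in the annotation. Besides the 10 genes and Pck1, the genes named were, by rule, the 2 with the smallest p and the 1 with the highest mean CPM in each pathway list, and for each member the 2 non-member genes of at least 10 CPM, without predicted-gene names, with the highest r. Others were chosen after their values were seen. Some genes that the rule names are not reported here. The settings varied were RLE or upper quartile factors, library totals alone, totals without the 10 genes, other filters, DESeq2 1.42.0, limma-voom 3.58.1 with weights per sample, a block for the replicate number, a threshold of 0.1, and leaving out each library.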

Additional observations from a re-analysis of the deposited data

Results flagged for a closer look

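In 64 groups of 4 libraries examined, 4 held a library far from the other 3, where chance gives 3.2. Apoc4 had 180.1 CPM in HSC-PCK1-KO replicate 1 against 115.4 to 125.7 CPM in the other 3 HSC-PCK1-KO libraries. Saa1 had 1165 CPM in the same library against 79.5 to 168.3 CPM. Cideb had 218.3 CPM in HSC-PCK1-KO replicate 4 against 268.7 to 270.1 CPM in the other 3, and Smlr1 had 24.5 CPM there against 26.0 to 26.3 CPM.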

How the results depend on the processing

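In 17 alternatives for each of the 10 genes none was called, 149 of 170 log2 fold changes kept their direction and 21 turned, and the smallest unadjusted p was 0.0923. Leaving out 1 library gave Apoa1 -0.103 to 0.0419, Apoa2 -0.0184 to 0.221, Apoa4 -0.405 to 0.193, Apoa5 -0.0725 to 0.119, Apoc2 -0.278 to 0.0528 and Apoc3 -0.0688 to 0.0687. Apob (0.00656 to 0.114), Apoc1 (0.122 to 0.294), Apoc4 (0.0721 to 0.310) and Apoe (0.0384 to 0.192) kept their direction in all 17. With limma-voom Apoc2 was at 0.0528 and Apoc3 at -0.0193, and with the replicate block Apoa5 was at -0.00108. The cause was not tested. The median of the 10 was 0.0297 to 0.136 with 1 library left out, the highest being without HSC-PCK1-KO replicate 4. The count of genes called was 0 in edgeR, 3 in DESeq2 (Upk3b, Blvrb and Cobl), and 0 to 1 with 1 library left out, Gm15920 without Control replicate 1. With the replicate block it was 0, and the block changed no call. Deviations of libraries with the same number correlated at -0.0333, -0.329, -0.0589 and 0.0576. Only for replicate 4 did the highest correlation fall on the library with the same number. Low correlations cannot show that libraries are unpaired, and the labels do not state a pairing. Apoe held 23.8% of the summed TPM of the 10 genes and 37.8% of their summed CPM. The median log2 fold change of all genes lay between -0.00822 and 0.00309 in every setting. Library totals alone were added for correlations and for highest and lowest libraries after the data were seen. The spread between libraries limits Apoa4, Apoc2 and Apoc4, and in some fits with 1 library left out also Apoa2 and Apoc1. Apoc2 also has the fewest counts, 131 to 253 per library.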
